A study of Homo sapiens with 6 samples.

Results

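The neutrophil-attracting CXC chemokines CXCL1, CXCL2, CXCL3, CXCL5, CXCL6 and CXCL8 were compared on arrays of PC-3/Mc with arrays of PC-3/S; both are derivatives of the established human prostate carcinoma line PC-3. The 6 genes are 6 of 19775 measured, and they were found as the probe sets whose platform annotation gives one of these symbols alone, 11 of 54675 on the array. They were selected on these same array values, with their difference between the lines already known, so that this difference is a description and was not tested. Each line was measured on 3 one-colour Affymetrix arrays from untreated, subconfluent cultures, as far as the labels say, which name no genetic change and do not say how the sublines were derived. Both lines come from the same parent, so that no other tumor is represented. Values are on the log2 scale, a difference is the PC-3/Mc mean less the PC-3/S mean with the SE of the limma fit, and a mean is given ± SD over n = 3 arrays.

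These chemokines are small secreted proteins that carry a glutamate-leucine-arginine (ELR) motif just before the paired cysteines of the CXC fold, the feature that lets them act on the receptor CXCR2 and draw neutrophils into tissue. CXCL6 and CXCL8 also act on CXCR1. Epithelial and tumor cells make them when the transcription factor NF-kappaB is active, classically after interleukin-1 or tumor necrosis factor, and their short-lived mRNAs are further controlled through AU-rich elements. In carcinomas they are also known as growth and angiogenic factors for tumor cells and vessels.

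All 6 genes lie in one cluster on chromosome 4, and the 150 bases upstream of each annotated start site are shown. A short match to the NF-kappaB motif, in capitals, was found in every member. The stretches are from RefSeq (GRCh38.p14), 5′ to 3′ on the gene's own strand: CXCL1 at chr4:73869243-73869392 (+), CXCL2 at chr4:74099196-74099345 (-), CXCL3 at chr4:74038690-74038839 (-), CXCL5 at chr4:73998678-73998827 (-), CXCL6 at chr4:73836528-73836677 (+) and CXCL8 at chr4:73740419-73740568 (+).
CXCL1: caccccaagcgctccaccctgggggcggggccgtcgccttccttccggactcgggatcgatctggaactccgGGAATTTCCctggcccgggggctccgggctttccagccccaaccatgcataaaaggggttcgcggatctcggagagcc
CXCL2: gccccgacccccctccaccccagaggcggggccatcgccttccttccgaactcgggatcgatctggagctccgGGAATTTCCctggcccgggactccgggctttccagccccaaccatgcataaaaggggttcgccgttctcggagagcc
CXCL3: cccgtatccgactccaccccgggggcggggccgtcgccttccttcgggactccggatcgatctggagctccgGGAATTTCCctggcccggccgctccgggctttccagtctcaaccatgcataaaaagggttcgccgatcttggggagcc
CXCL5: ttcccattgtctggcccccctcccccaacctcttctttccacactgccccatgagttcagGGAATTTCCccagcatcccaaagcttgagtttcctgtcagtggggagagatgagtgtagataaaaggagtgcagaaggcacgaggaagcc
CXCL6: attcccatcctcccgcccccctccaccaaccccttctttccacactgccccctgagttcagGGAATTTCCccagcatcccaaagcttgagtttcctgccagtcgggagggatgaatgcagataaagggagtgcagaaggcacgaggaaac
CXCL8: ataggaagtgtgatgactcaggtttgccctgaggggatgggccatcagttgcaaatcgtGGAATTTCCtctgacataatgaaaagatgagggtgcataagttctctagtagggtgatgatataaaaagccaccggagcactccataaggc

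The letters GGAATTTCC, searched on both strands from 250 bases before to 50 bases after the start site, were found in the promoter windows of 6 of 6 members and in 162 of 35116 windows of the RefSeq promoter table (0.461%). Each member held a single match, on its own strand. It began 78 bases before the start site in CXCL1 and CXCL3, at 77 in CXCL2, at 90 in CXCL5, at 89 in CXCL6 and at 91 in CXCL8. A looser form, GG and CC on either side of 6 bases of any kind, occurred in 6 of 6 members but also in 78.6% of all windows. It overlaps the shorter motif in the members other than CXCL8, whose looser matches begin 117 and 17 bases before the start site. The AP-1 letters TGANTCA were found in CXCL8 alone among the members (137 bases before the start; 7.71% of all windows), the C/EBP letters TTGCNNAA in CXCL2 alone (10.5% of all) and the TATA letters TATAAA in CXCL8 alone (11.5% of all). The interferon response motif, a repeat of GAAA with 2 bases of any kind between, was found in 0 of 6 members and 3.57% of all windows. A match is a stretch of letters and was not tested for binding. Only the exact letters were searched, so a member without a match can still hold a variant of a site. Each printed stretch holds the shorter letters ATAAA, and that of CXCL8 holds TTGCAAAT, which differs from the C/EBP letters at its last base.

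**Figure D1:**
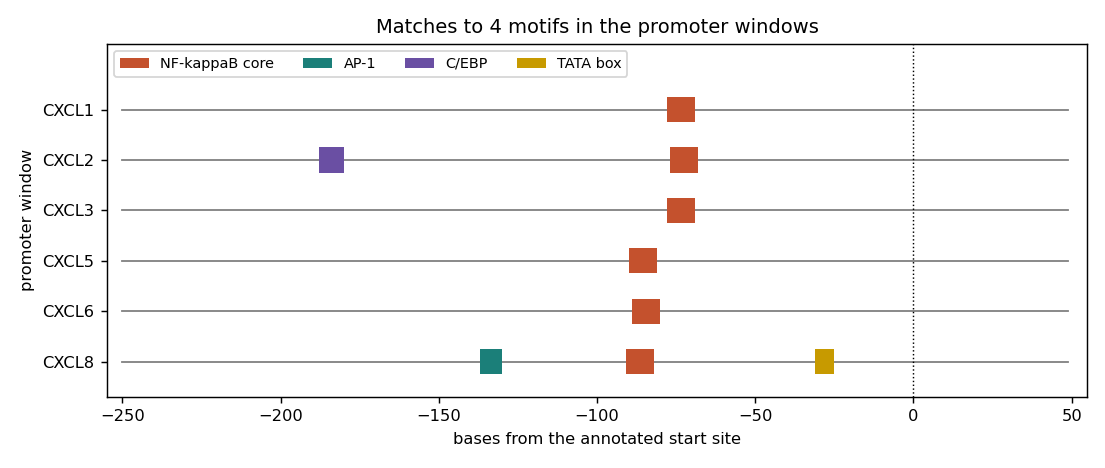
Matches to 4 motifs in the promoter windows of the 6 members, drawn by distance in bases from the annotated start site (dotted line); each coloured block is 1 match. Every window holds an NF-kappaB match, beginning between 77 and 91 bases before the start. Matches to the exact AP-1, C/EBP and TATA letters each appear in a single member, and variants of these letters were not searched.

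The 250 bases upstream of the start sites fell into related groups when aligned end to end. CXCL5 and CXCL6 were identical at 85.3% of aligned positions, and the pairs among CXCL1, CXCL2 and CXCL3 at 70.1% to 81.4%. Pairs between these groups reached 52.3% to 54.2%, and CXCL8 matched the other 5 members at 43.9% to 47.9%. Outside the family the same letters were found in genes of either direction: among 82 other measured genes with a match, 22 were called lower (26.8%) and 23 higher (28%), against 23.1% lower and 24.9% higher of 15378 measured genes with a promoter entry, members left out. Here and below a gene is called at an adjusted p under 0.05 (limma, Benjamini-Hochberg over all 19775 genes). The median difference was -0.02 in both sets.

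CXCL8 (interleukin-8), the best known neutrophil attractant of the family, had the largest difference. Its brighter probe set read 7.69, 7.59 and 7.60 in the PC-3/Mc arrays and 13.21, 13.16 and 13.27 in the PC-3/S arrays. All 3 PC-3/S arrays lay far above all 3 PC-3/Mc arrays, a difference of -5.59 ± 0.08 or 48.1-fold, while arrays of the same line lay within 0.11 of each other. The other CXCL8 probe set read 7.81, 7.91 and 7.71 in PC-3/Mc, against 12.33, 12.37 and 12.62 in PC-3/S. It gave the same direction with a smaller difference of -4.63 ± 0.10 (24.8-fold). In PC-3/Mc the gene still read between 7.59 and 7.91, above the median of all genes (5.98), so its transcript was lower there but not at background.

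CXCL6 (granulocyte chemotactic protein 2) followed closely, on its sole probe set. It read 5.19, 5.38 and 5.06 in PC-3/Mc, against 9.71, 9.77 and 10.11 in PC-3/S, a difference of -4.66 ± 0.12 (25.2-fold). The PC-3/S arrays were bright and the PC-3/Mc arrays sat at the edge of background. As a rough guide to background, the 5 probe sets of CTNNA1, which the PC-3 genome is known to lack, read between 3.51 and 5.18. Where the dimmer line's mean lies at or under 5.18, a fold is given as a lower bound against that reading.

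CXCL5 (epithelial-derived neutrophil-activating peptide 78), the close relative of CXCL6, read under the CTNNA1 limit in PC-3/Mc on all of its 3 probe sets. Its brightest probe set read 3.96, 4.06 and 4.10 in PC-3/Mc, against 6.63, 6.12 and 6.54 in PC-3/S. The PC-3/Mc arrays were all under the CTNNA1 reading and the PC-3/S arrays all above it, at least 2.39-fold higher (measured difference -2.39 ± 0.12). A second probe set, ending in _s_at, read 3.61, 3.78 and 3.67 against 5.28, 5.21 and 5.45, at least 1.10-fold higher in PC-3/S. The remaining one stayed between 3.43 and 3.92 in all 6 arrays, under the CTNNA1 reading in both lines, where a difference (-0.35 ± 0.09) has no firm meaning.

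The GRO chemokines CXCL1, CXCL2 and CXCL3 (growth-regulated oncogenes alpha, beta and gamma) also read higher in PC-3/S. CXCL1, first described as a melanoma growth factor, read 9.0, 9.02 and 8.99 in PC-3/Mc, against 10.50, 10.39 and 10.73 in PC-3/S. The lines did not overlap, but CXCL1 was bright in both, with a difference of -1.54 ± 0.10 (2.90-fold). That is the smallest measured difference of the 6 on the probe sets used, but CXCL5 has only a bound, and averaging probe sets or dropping the _x_at and _s_at ones gives CXCL2 and CXCL5 smaller differences than CXCL1. CXCL2 read 7.21, 7.12 and 7.08 in PC-3/Mc, against 9.23, 8.99 and 9.35 in PC-3/S, a difference of -2.05 ± 0.10 (4.15-fold). CXCL3 read 5.21, 4.84 and 4.40 in PC-3/Mc, against 7.86, 7.64 and 8.0 in PC-3/S. PC-3/S was at least 6.26-fold higher for CXCL3 (measured difference -3.02 ± 0.17), with the PC-3/Mc arrays around and under background and more spread than those of PC-3/S.

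The CXCL2 value rests on 1 of its 3 probe sets. The others were under the CTNNA1 reading in both lines: one read 3.82 to 3.95 in PC-3/Mc, against 4.11 to 4.55 in PC-3/S, and the other read 4.06 to 4.29 and 3.92 to 4.0, the only one of the 11 with a higher mean in PC-3/Mc (0.18 ± 0.09). The bright CXCL2 probe set, the bright CXCL5 one and one of the CXCL8 pair end in _x_at, which marks probes that can also bind similar transcripts. The GRO transcripts are close copies of each other, and how much of the CXCL2 signal came from CXCL1 or CXCL3 RNA was not tested. CXCL2 is therefore less certain than its error shows. Whether the bright CXCL5 probe set also bound RNA of its close relative CXCL6 was not tested either. CXCL5 is likewise less certain than its bound shows.

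**Figure D2:**
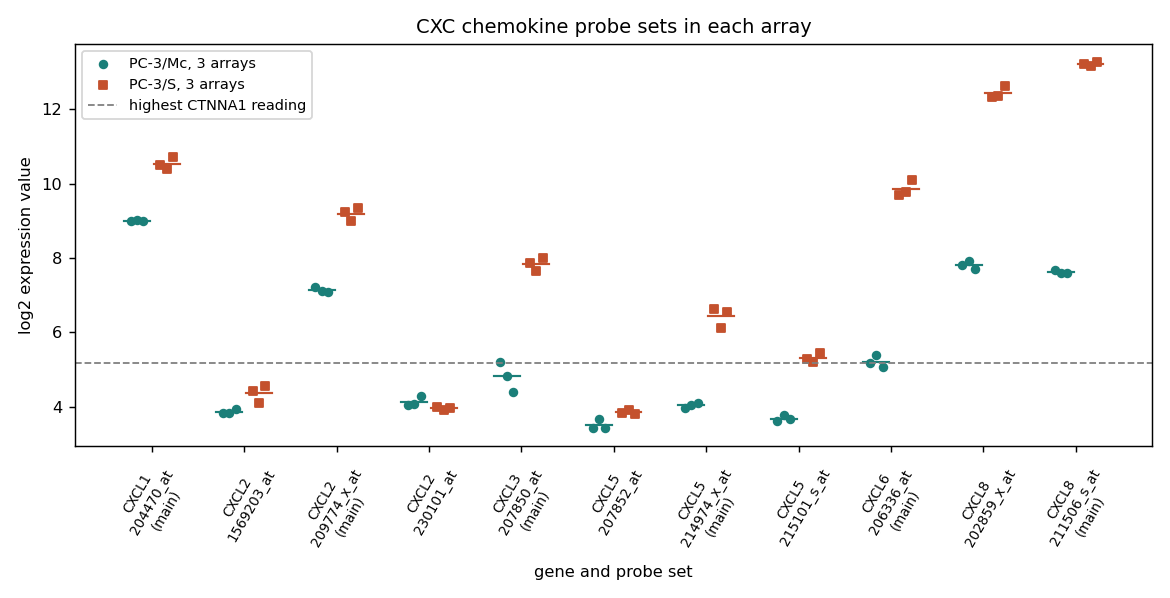
Log2 expression value of each of the 11 probe sets in each array; circles are the 3 PC-3/Mc arrays, squares the 3 PC-3/S arrays, short lines the means, and the dashed line the highest CTNNA1 reading (5.18). PC-3/S lies above PC-3/Mc on the probe set used for every gene, while 3 further CXCL2 and CXCL5 probe sets stay under the dashed line in both lines.

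All 6 genes were thus higher in each PC-3/S array than in any PC-3/Mc array, and the same held for 10 of the 11 probe sets. Over all genes, 26.8% did not overlap in that direction, and over all probe sets 22.7%; since the genes were chosen for it, nothing is read from this. The median difference of the 6 genes was -2.70, against -0.03 over all genes. The differences ranged from -5.59 to -1.54. Among 11519 genes that read above 5.18 on average in both lines, CXCL8 had the 4th lowest difference, CXCL6 the 9th, CXCL2 the 119th and CXCL1 the 287th. CXCL3 and CXCL5 have only a bound and were not ranked.

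**Figure D3:**
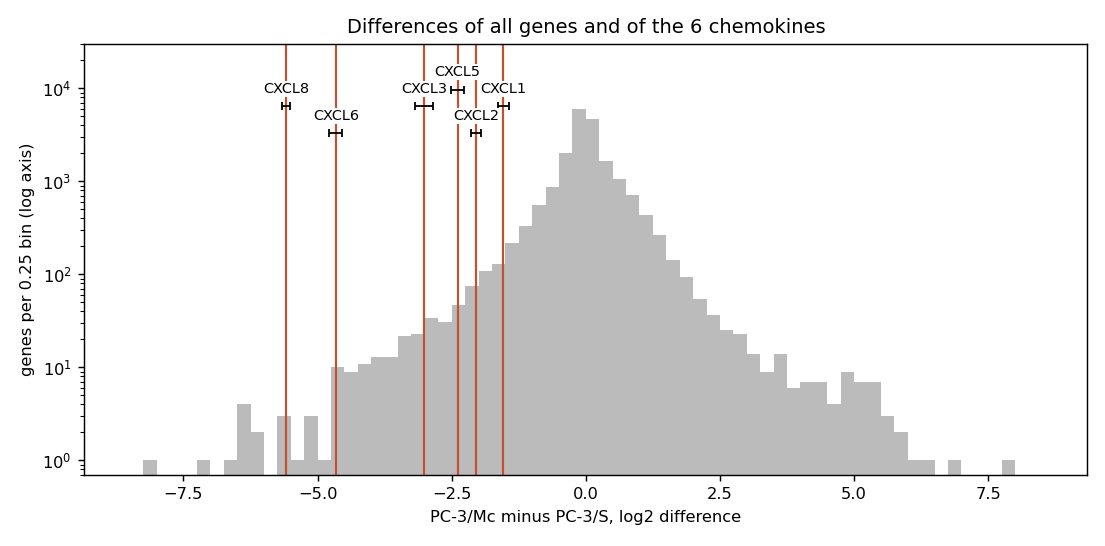
Histogram of the log2 difference between lines (PC-3/Mc minus PC-3/S) for all 19775 genes on a log count axis, with the 6 members as vertical lines and their SE as horizontal bars. All 6 lie left of 0, from CXCL8 at -5.59 to CXCL1 at -1.54.

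Within a line the members varied unequally. The SD over replicates, pooled over both lines, was 0.054 for CXCL8, 0.126 for CXCL1 and 0.137 for CXCL2, against a median over all genes of 0.113, and 9.18% of genes had a smaller SD than CXCL8. It was 0.189 for CXCL6, 0.199 for CXCL5 and 0.313 for CXCL3, the last larger than in 99.6% of genes, with an SD of 0.40 over the PC-3/Mc arrays against 0.18 over those of PC-3/S. Among the PC-3/S arrays, replicate 3 was the highest for 5 of 6 members and replicate 2 the lowest for 5 of 6, whereas over all genes replicate 3 was the highest for 37% and replicate 2 the lowest for 35.9%. Among the PC-3/Mc arrays the highest was replicate 1 for 3 members, replicate 2 for 2 and replicate 3 for 1. These counts are a description and were not tested.

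The genes whose 6-array profile lay nearest to a member, after each gene's own mean was removed, share its difference between lines and little else can be read from 6 arrays. Nearest to CXCL8 were the interleukin-33 receptor gene IL1RL1 (root mean square distance 0.056) and TSPYL5 (0.085), both under background in PC-3/Mc, and PTX3 (0.241), which encodes the soluble pattern recognition protein pentraxin 3 and read 5.54 ± 0.29 in PC-3/Mc, against 10.91 ± 0.23 in PC-3/S. Nearest to CXCL1 were CRISPLD1 (0.037), SHC4 (0.047) and PXDC1 (0.051), with measured differences of -1.50, -1.56 and -1.59; SHC4 was under background in PC-3/Mc, so that PC-3/S is at least 2.65-fold higher for it.

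The cluster itself gave a comparison that the choice of members did not fix, at the genes lying among them. From CXCL8 to CXCL2 RefSeq lists 9 protein-coding genes, the 6 members and the platelet chemokine genes PF4V1, PF4 and PPBP. PF4 (platelet factor 4), whose protein lacks the ELR motif, read 5.11, 5.03 and 5.66 in PC-3/Mc, against 6.42, 6.37 and 6.38 in PC-3/S. It was lower in PC-3/Mc by -1.12 ± 0.14 (adjusted p = 6.46e-05), on a probe set ending in _x_at. PPBP, which gives rise to the ELR chemokine CXCL7, read under 5.18 in both lines and was not called (0.11 ± 0.08, adjusted p = 0.315), nor was PF4V1 (-0.19 ± 0.10, adjusted p = 0.135; called at adjusted p = 0.0477 without PC-3/S replicate 1). The pseudogene PPBPP2 was dim and not called (0.03 ± 0.09, adjusted p = 0.81).

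Beyond the ends of the cluster the direction was mixed. Of the 5 measured genes on each side, 10 in all, 3 were called higher in PC-3/Mc and 2 lower, where over all genes 23.2% were called higher and 22.7% lower. On the CXCL8 side AFP (alpha-fetoprotein) was higher by 1.12 ± 0.09 (adjusted p = 2.37e-06; at least 1.94-fold), while ALB, AFM, LINC02499 and RASSF6 were not called. On the CXCL2 side the uncharacterised LOC105377276 was higher in PC-3/Mc by 7.75-fold at least (adjusted p = 4.67e-10) and PARM1 2.61-fold higher (adjusted p = 4.61e-07). MTHFD2L, the first measured gene past CXCL2, was slightly lower (-0.46 ± 0.11, adjusted p = 0.0061), a call lost when its 8 probe sets were averaged (0.01). In the fit over all probe sets, others of the 8 were called higher in PC-3/Mc (0.77, adjusted p = 4.78e-05, and 0.31, adjusted p = 0.0376). Another was called lower (-0.26, adjusted p = 0.036). BTC (betacellulin) was lower by -0.28 ± 0.10 (adjusted p = 0.0436), a call lost in most alternative fits, and EREG (epiregulin) was dim and not called (adjusted p = 0.299; called higher in PC-3/Mc as the mean of its probe sets, 0.23, adjusted p = 0.0244).

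**Figure D4:**
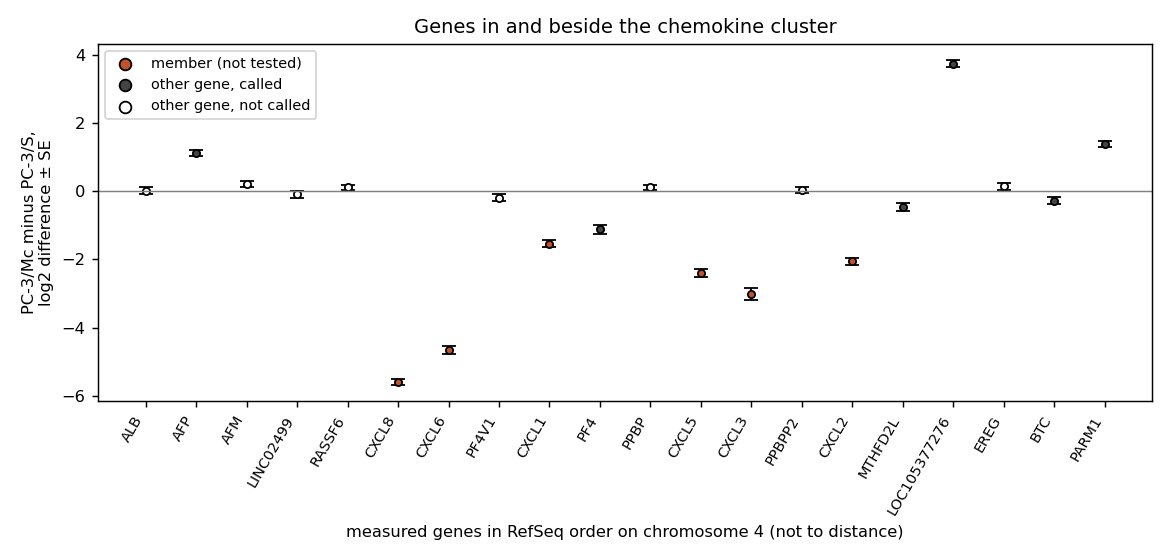
Log2 difference (PC-3/Mc minus PC-3/S) ± SE of the measured genes in their order on chromosome 4, equally spaced; orange points are members, dark points other genes called by the test, white points genes not called. The members lie below 0. Among the other genes called, PF4 inside the cluster and MTHFD2L and BTC outside it lie below 0, and AFP, LOC105377276 and PARM1 outside it lie above 0.

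Of the 3 receptor genes measured, 0 passed the limma test, and 0 had an unadjusted p under 0.05. CXCR1 read 6.61 ± 0.09 in PC-3/Mc, against 6.71 ± 0.06 in PC-3/S (-0.10 ± 0.08, adjusted p = 0.389). CXCR2 read 4.19 ± 0.11 and 3.97 ± 0.17, under background in both lines (adjusted p = 0.1; called higher in PC-3/Mc at adjusted p = 0.0441 after quantile normalization, 0.0327 after centring and 0.0411 without PC-3/S replicate 2). ACKR1, a decoy receptor that binds chemokines without signalling, was also under background (adjusted p = 0.747). Of the 8 other CXC chemokines measured, CXCL16, a transmembrane chemokine for lymphocytes, was higher in PC-3/Mc (1.67 ± 0.10, adjusted p = 1.76e-07; at least 2.62-fold) and 7 were not called, among them the interferon-induced CXCL9, CXCL10 and CXCL11, all under background; without PC-3/Mc replicate 2 the genes called higher in this list were 2.

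A list of 21 genes held cytokines and receptors that induce the members, and the interleukin-1 receptor antagonist gene IL1RN. Of these, 7 were called lower in PC-3/Mc and 3 higher (over all genes 22.7% and 23.2%), and 11 did not pass the test. With _x_at and _s_at probe sets dropped, 7 of 19 were lower and 1 higher. Interleukin-1 beta (IL1B) read 8.41 ± 0.07 in PC-3/Mc, against 11.32 ± 0.06 in PC-3/S (-2.91 ± 0.08, adjusted p = 4.67e-10), and its other probe set differed by -2.79. IL1A was lower too (-1.32 ± 0.10, adjusted p = 9.43e-07; at least 1.52-fold), a call lost (-0.25, adjusted p = 0.15) once the _x_at and _s_at probe sets were dropped. TNF was under background and not called (adjusted p = 0.246; called lower at adjusted p = 0.00847 without PC-3/S replicate 3). The receptor genes TNFRSF1A (1.35 ± 0.09, adjusted p = 3.24e-07) and TLR2 (1.03 ± 0.08, adjusted p = 1.43e-06) ran the other way. IL1RN, an inhibitor and not an inducer, was also higher in PC-3/Mc (0.25 ± 0.09, adjusted p = 0.0472). With averaged probe sets only 2 genes of the list were called higher, TNFRSF1A and TLR2, so the IL1RN call was lost. The count was likewise 2 with a variance trend, with a replicate block, and with any array other than PC-3/Mc replicate 2 left out.

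Of 13 NF-kappaB subunits and feedback genes, 10 were called lower in PC-3/Mc, 5 by 2-fold or more (5.58% of all genes), and 1 higher, with a median of -0.88. RELA (-0.56 ± 0.09) and NFKB1 (-0.74 ± 0.09), which encode the classical subunits, differed less than RELB (-2.01 ± 0.10) and the inhibitors TNFAIP3 (-2.01 ± 0.08), NFKBIA (-1.91 ± 0.08) and NFKBIE (-1.38 ± 0.08), all with adjusted p of at most 0.000528. NFKBIZ, a nuclear cofactor, was lower by -0.88 ± 0.09 (adjusted p = 1.68e-05). With _x_at and _s_at probe sets dropped, 6 of 10 measured genes were lower, and NFKBIA was left with a dim probe set that was not called (0.12, adjusted p = 0.376). Of the kinases and adaptors upstream, 9 of 17 were called higher and 3 lower, with a median of 0.27. Without those probe sets 3 of 13 were higher and 3 lower, near the shares over all genes (23.2% and 22.7%); MAP3K14 (-2.01 ± 0.10) and IRAK2 (-1.18 ± 0.11) were lower at least 2-fold.

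Other factors known at these promoters split into 9 lower, 7 higher and 3 not called of 19 (over all genes 22.7% lower and 23.2% higher). With _x_at and _s_at probe sets dropped, 7 of 17 were lower and 5 higher. ATF3 (-2.11 ± 0.11), CUX1 (-1.38 ± 0.09) and CEBPB (-1.10 ± 0.08) were lower and CEBPA (1.83 ± 0.08, at least 3.35-fold) higher. Of 13 genes of mRNA decay and stability at AU-rich elements, 8 were higher and 2 lower, with a median of 0.42 (over all genes 23.2% and 22.7%). They encode RNA-binding proteins, apart from the kinase gene MAPKAPK2, which was lower (-0.33 ± 0.09, adjusted p = 0.0093). With _x_at and _s_at probe sets dropped, 6 of 11 were higher and 2 lower. AUH (1.89 ± 0.09) and CELF1 (1.03 ± 0.08) led, though 1 of 7 CELF1 probe sets was called lower (-0.40). The destabilising factor ZFP36L1 was lower (-2.02 ± 0.12, adjusted p = 1.42e-07), the stabilising ELAVL1 (HuR) higher (0.92 ± 0.08; 0.16 and not called, adjusted p = 0.125, as the mean of its probe sets), and tristetraprolin (ZFP36) not called (0.22 ± 0.09, adjusted p = 0.0732; called higher after centring, adjusted p = 0.0325, and without dim genes, adjusted p = 0.0443).

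Secreted factors often made alongside the members were lower for 11 of 19 (7 past 2-fold) and higher for 1, with a median of -0.45. Over all genes 22.7% were lower (5.58% by 2-fold or more) and 23.2% higher. With _x_at and _s_at probe sets dropped, 9 of 15 were lower and 0 higher. LIF (-3.59 ± 0.08), IL24 (at least 5.62-fold), IL6 (at least 7.38-fold) and IL33 (at least 2.76-fold) were lower in PC-3/Mc, with adjusted p of at most 4.17e-08. Proteases known to trim chemokines gave 3 higher, 3 lower and 9 not called of 15, near the shares over all genes (23.2% and 22.7%). ANPEP (-4.41 ± 0.15) and PLAU (-1.68 ± 0.07) were lower and MMP1 (2.01 ± 0.15) higher. With _x_at and _s_at probe sets dropped, ANPEP had no call (-0.07, adjusted p = 0.627) and PLAU had no value, which left 1 of 13 lower. A list of 11 genes held carriers of glycosaminoglycans, the sugar chains that hold chemokines, and the CXCL8-binding TNFAIP6. Of these 11, 4 were higher and 4 lower (over all genes 23.2% and 22.7%). With _x_at and _s_at probe sets dropped, 2 of 8 were higher and 4 lower. Serglycin (SRGN, -6.41 ± 0.12) and GPC4 (at least 2.67-fold) were lower. TNFAIP6 was higher (4.40 ± 0.10, adjusted p = 1.32e-10), where 5.88% of all genes were higher at least 2-fold. With _x_at and _s_at probe sets dropped TNFAIP6 had no value.

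**Figure D5:**
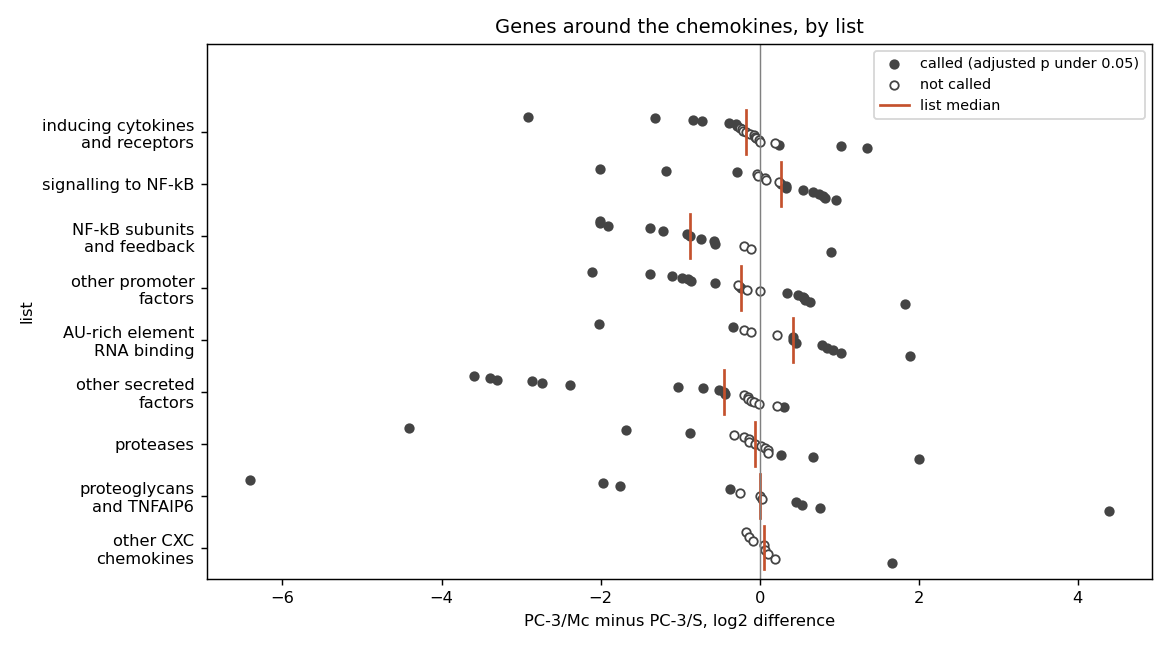
Log2 difference (PC-3/Mc minus PC-3/S) of the measured genes of 9 lists; filled points were called at an adjusted p under 0.05, open points were not, and the vertical bars are list medians. NF-kappaB subunits and feedback genes (median -0.88) lie mostly left of 0. The list labelled AU-rich element RNA binding (median 0.42), which includes the kinase gene MAPKAPK2, lies mostly right of it.

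The arrays were alike in brightness (medians 4.98 to 5.09) and correlated at 0.995 to 0.997 within a line and 0.949 to 0.953 between lines. The epithelial keratin genes KRT8, KRT18 and KRT19 were bright in both lines, and KLK3 (prostate-specific antigen), known to be lacking in PC-3, read 6.39 ± 0.33 and 6.73 ± 0.12 on an _x_at probe set but under 5.18 on the other 2. Markers of other cell types that make or answer these chemokines were mostly dim. The pan-leukocyte gene PTPRC read 3.90 and 3.72 and was not called, but of the 6 leukocyte markers CORO1A was called lower in PC-3/Mc (4.82 against 5.75, adjusted p = 3.34e-06). Among 6 endothelial markers KDR was lower (4.06 against 6.23, adjusted p = 4.11e-08) and PECAM1 higher (7.18 against 6.58, adjusted p = 8.85e-05). Among 6 fibroblast ones DCN (adjusted p = 0.00375) and COL1A1 (adjusted p = 0.0275) were lower and PDGFRB, under background, higher (adjusted p = 0.0108). COL1A1 was well above background in both lines (7.39 against 7.67). Of the neutrophil markers MPO, also under background, was lower (adjusted p = 0.0427). All 4 measured monocyte and macrophage markers and 5 of 6 neutrophil markers were under 5.18 in both lines. Summed linear signal was 182 to 198 in PC-3/Mc, against 207 to 215 in PC-3/S for 6 leukocyte markers, 90.3 to 107 and 83.2 to 89.6 for the monocyte and macrophage ones, 129 to 140 and 132 to 149 for neutrophils, 269 to 291 and 287 to 306 for 6 endothelial ones and 291 to 345 and 349 to 375 for 6 fibroblast ones; the part of these shifts in the results was not tested. In bulk RNA, fewer cells making a transcript and less transcript per cell cannot be told apart.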

How the data were processed

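RNA of 6 arrays, 3 per line, was measured, and arrays were grouped by line from their titles. Processed log2 values were taken from the matrix the authors deposited. For their background correction and scaling, a method was not given in the sources used here. Their log base was settled from the values (2.59 to 14.45), and no array column was without a sample. Of the probe sets, 62 were controls, 41091 had 1 gene symbol, 1801 several and 11721 none. The probe set of highest mean stood for its gene, and member probe sets also by a fit over all probe sets. Differences were fitted with limma 3.58.1 in R 4.3.3 (lmFit, eBayes, two-sided, no covariates) with Benjamini-Hochberg adjustment over 19775 genes. The number of arrays limits the precision (median SE 0.092). Labels call the replicates biological but name no separate cultures, so that p-values reflect just the spread among these arrays, which may be technical.

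The members and lists were chosen with earlier results of these data known. Named genes were the members, a set of anchor genes, up to 4 called genes per list and direction with a log2 difference of at least 1 and a mean at or above 5.98 in the higher line, the neighbours in RefSeq order, and 3 nearest profiles each for CXCL8 and CXCL1. The fit was tested on simulated data. The CTNNA1 limit was chosen after its values were seen. Promoter windows were aligned with Biopython 1.88 (match 1, mismatch -1, gap opening -2, extension -0.5). No protein sequences were used here. Alternatives were other scalings, probe set rules, a dim-gene filter, a variance trend, a replicate block, leaving out arrays and a limit from olfactory receptor genes.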

Additional observations from a re-analysis of the deposited data

How the results depend on the processing

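The direction of every member held in each alternative that measured it, with 53 of 59 values within 1 replicate SD of the reported one over the alternatives that can move a difference of means. Averaging a gene's probe sets gave -0.79 for CXCL2, -1.45 for CXCL5 and -5.11 for CXCL8, since dimmer probe sets then counted equally. With _x_at and _s_at probe sets dropped the difference was -0.49 for CXCL2 and -0.35 for CXCL5, both on probe sets under 5.18 in both lines; CXCL8 has no other probe set and got no value. Quantile normalization gave -5.66 for CXCL8. Over the 12 lists around the members, 37 of 145 measured genes were called higher and 52 lower (over all genes 23.2% and 22.7%). Without _x_at and _s_at probe sets 22 were called higher and 41 lower, with fewer genes measured. The reversed genes were MTHFD2L with averaged probe sets (0.01) and NFKBIA without those probe sets (0.12), neither called there. Same-numbered arrays did not deviate together (correlations -0.02, -0.259 and -0.38), and with the number as a replicate block 4184 genes were called higher and 3906 lower, against 4585 and 4498; in the lists 35 and 49. With 1 array of each number per line, the block leaves each member's difference at its reported value by construction (-5.59 for CXCL8). Placing the background at 5.12, the 95th percentile of 107 olfactory receptor probe sets, left 6 of 11 member probe sets with a dimmer line at background, the same number. Signal near background limits CXCL3 and CXCL5, and CXCL6 in PC-3/Mc.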
